A study of Mus musculus with 12 samples.

Results

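Integrins are the receptors with which cells hold on to the extracellular matrix, and laminins are large matrix proteins to which many of them bind. The genes described here were taken by symbol, as all genes of integrin alpha subunits, integrin beta subunits and laminin chains with a mean of at least 10 normalized counts over the libraries. Of 27754 genes in the table, 37 had such a symbol and 34 passed the minimum, namely 15 alpha subunits, 8 beta subunits and 11 laminin chains. *Itgae* (mean 8.36), *Itgad* (1.73) and *Itgax* (1.45), which encode alpha subunits of leukocytes, stayed below it, and the lowest member that passed was *Itgb2* at a mean of 43.6.

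An integrin is a pair of 1 alpha and 1 beta subunit, and the pair decides which matrix proteins are bound. A laminin is a trimer of 1 alpha, 1 beta and 1 gamma chain, assembled into the basement membrane that lies under epithelia such as the organ of Corti. Integrins also link the matrix to actin inside the cell through adaptors such as talin and kindlin, and several of the pairs with an alpha-v subunit release active TGF-beta.

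The study asked how the neonatal mouse cochlea responds to stabilized β-catenin at 2 ages. Treated pups carried Sox2-CreER and 1 allele of β-catenin with a floxed exon 3 (β-catenin-flox(Exon3)). Untreated pups were littermates with the floxed allele and no Cre. Pups of all groups received tamoxifen through the mother's milk, on postnatal day 1 (P1 groups, harvested on day 4) or on day 4 (P4 groups, harvested on day 7), 72 h before harvest. The mice were of mixed C57BL/6 and CD1 background. Cre was driven by Sox2, so that recombination was limited to SOX2+ cells. The RNA was of all cells kept after Cell Recovery Solution, used to part hair and supporting cells from mesenchyme and neurons, and not of SOX2+ cells alone. Each library held both cochleae of 1 pup. Of the 12 samples described, 11 libraries were analysed here, 3 from P1 treated and 3 from P1 untreated pups, 2 from P4 treated pups (replicates 1 and 3) and 3 from P4 untreated pups. Sums of normalized counts lay between 41.2 and 44.2 M per library.

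The tissue was checked with marker lists. All 14 hair cell markers and all 15 supporting cell markers passed the minimum. Markers of other cells passed as well, 15 of 15 for mesenchyme, 15 of 15 for leukocytes and 12 of 13 for endothelium, although the sensory epithelium had been freed from mesenchyme and neurons with Cell Recovery Solution. In such bulk RNA, fewer cells of a type and less RNA per cell cannot be told apart. *Sox2* was lower in P1 treated than in P1 untreated libraries (log2 fold change -0.67, adjusted p = 0.0300 in limma). At P4 its log2 fold change was -0.41 (adjusted p = 0.272 in limma). The paper names lowered *Sox2* in knock-in alleles such as Sox2-CreER as a limitation. Only treated pups carried this allele, so its effect and that of stabilized β-catenin cannot be told apart here. The total of *Ctnnb1*, which does not show the loss of an exon, differed at P1 by 0.16 on the log2 scale (adjusted p = 0.590 in limma). *Xist*, which is made in female cells, stood at 13 to 26 normalized counts in P1 treated, at 16, 3030 and 2794 in P1 untreated, at 4180 and 3268 in P4 treated and at 32 to 39 in P4 untreated libraries. Sex and treatment at P4 therefore cannot be told apart, nor can sex and age in the treated libraries. Sex is also partly mixed with treatment at P1 and with age in the untreated libraries.

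The members differed widely in level, and a few subunits ranked far above the rest. To compare levels between genes, normalized counts were divided by the length of 1 transcript per gene, that with the longest coding sequence. On this scale *Itga8*, whose alpha subunit pairs with integrin beta 1 and binds ligands with an RGD motif, ranked first with 5297 counts per kb over all libraries. *Itgb1*, the common partner of most alpha subunits, followed with 4604. *Itgb5*, whose beta subunit pairs with alpha v, had 3028. The beta chains *Lamb1* (2110) and *Lamb2* (2041) and the laminin receptor subunit *Itga6* (1792) came next. The order changed with age. *Itga8* was above *Itgb1* at P1, with 8029 against 4788 in treated and 6854 against 4554 in untreated libraries. At P4 it was below *Itgb1*, with 3706 against 5032 in treated and 2070 against 4186 in untreated libraries, and in the latter also below *Itgb5* (2780). The library ranges of *Lamb1* and *Lamb2* overlapped. At the low end lay the collagen receptor subunits *Itga1* (5.41) and *Itga2* (7.30) and the laminin chain *Lama3* (6.83).

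**Figure D1:**
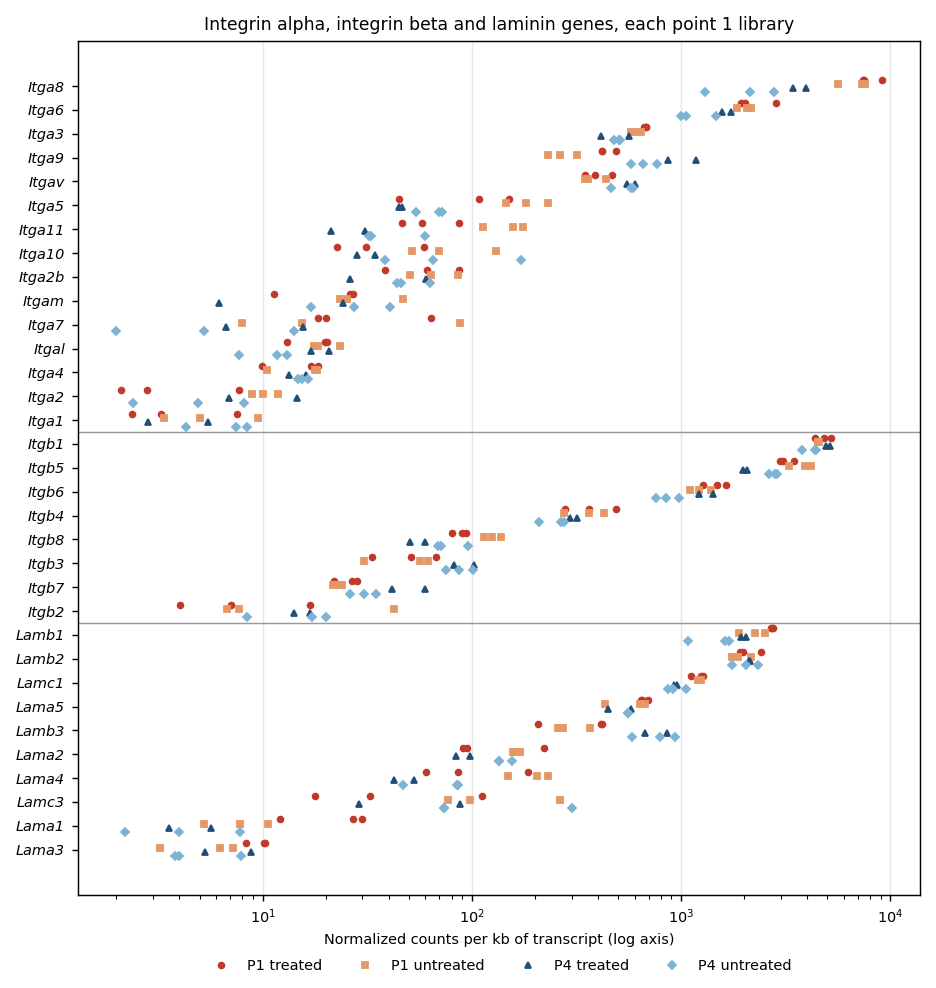
Normalized counts per kb of transcript (log axis) for integrin alpha, integrin beta and laminin genes, sorted by mean level within each class, with 1 point per library and 4 symbols for the groups. Levels ran from 1.99 per kb for *Itga7* in 1 P4 untreated library to 9152 for *Itga8* in 1 P1 treated library.

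Shares within the classes are given as a description and were not tested. Of all alpha subunit counts per kb, *Itga8* held 63.6% ± 2.68 in P1 untreated and 38.3% ± 6.94 in P4 untreated libraries (SD, n = 3 each). *Itga9*, whose subunit binds tenascin-C and other ligands without RGD, held 2.53% ± 0.261 and 12.8% ± 2.03. Among the beta chains of laminin, *Lamb3* held 6.73% ± 1.39 at P1 and 17.9% ± 0.92 at P4, and *Lamb1* held 50.0% ± 6.46 and 34.0% ± 2.33. *Lama5*, the alpha chain typical of mature epithelial basement membranes, had the largest share of the laminin alpha chains in every library, from 53.7% to 80.8%. The shares within a class sum to 100%, so a rise of 1 gene lowers the share of the others.

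**Figure D2:**
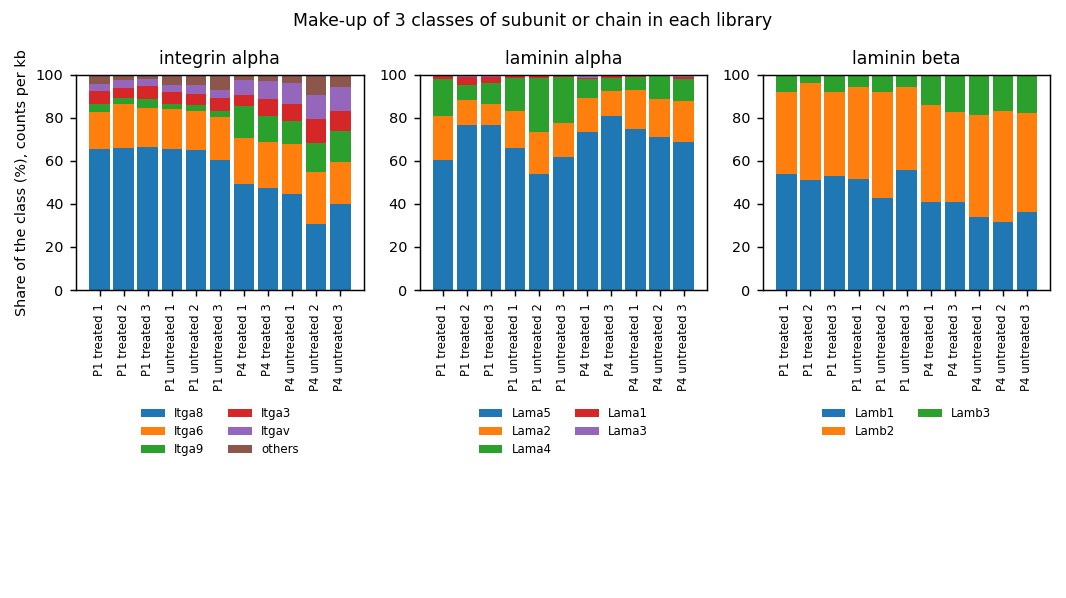
Share of each gene in the counts per kb of its class, in percent, for integrin alpha subunits, laminin alpha chains and laminin beta chains, with 1 stacked bar per library. The P1 libraries hold more of their alpha subunit counts in Itga8 than the P4 libraries, and the P4 libraries hold more Itga9, Itgav and Lamb3.

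Between the ages in untreated cochleae, 14 of the 34 genes differed, 11 of them higher at P1 and 3 higher at P4. The call was made in limma, with p-values adjusted over all 18400 genes tested, and asked for an adjusted p under 0.05 together with the study's minimum fold change. The same call took 19.9% of all genes, with 10.5% higher at P1 and 9.38% at P4. The median log2 fold change, P1 minus P4, was 0.33 over the 34 genes and 0.02 over all genes. By class, 4 alpha subunits were higher at P1 and 2 higher at P4, 3 beta subunits were higher at P1, and 4 laminin chains were higher at P1 and 1 at P4. The other 20 genes were not called. Markers of the sensory epithelium differed between these groups as well. Supporting cell markers summed to 474713 to 538282 normalized counts at P1 and 317927 to 420561 at P4, with 2 of 15 called higher at P1, 6 higher at P4 and a median log2 fold change of -0.32. Hair cell markers summed to 38227 to 58379 and 62979 to 75234, with 1 of 14 called higher at P1, 5 higher at P4 and a median of -0.34. Their part in the 14 calls was not tested. Without each library in turn the count was 10 to 13, and 8 genes kept their call throughout, *Itga6*, *Itga8*, *Itga9*, *Itga11*, *Itgb5*, *Itgb8* and *Lamb3* among them. With log2 *Xist* as a covariate 9 were called, 8 of the 14 among them, and all 14 kept their direction.

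**Figure D3:**
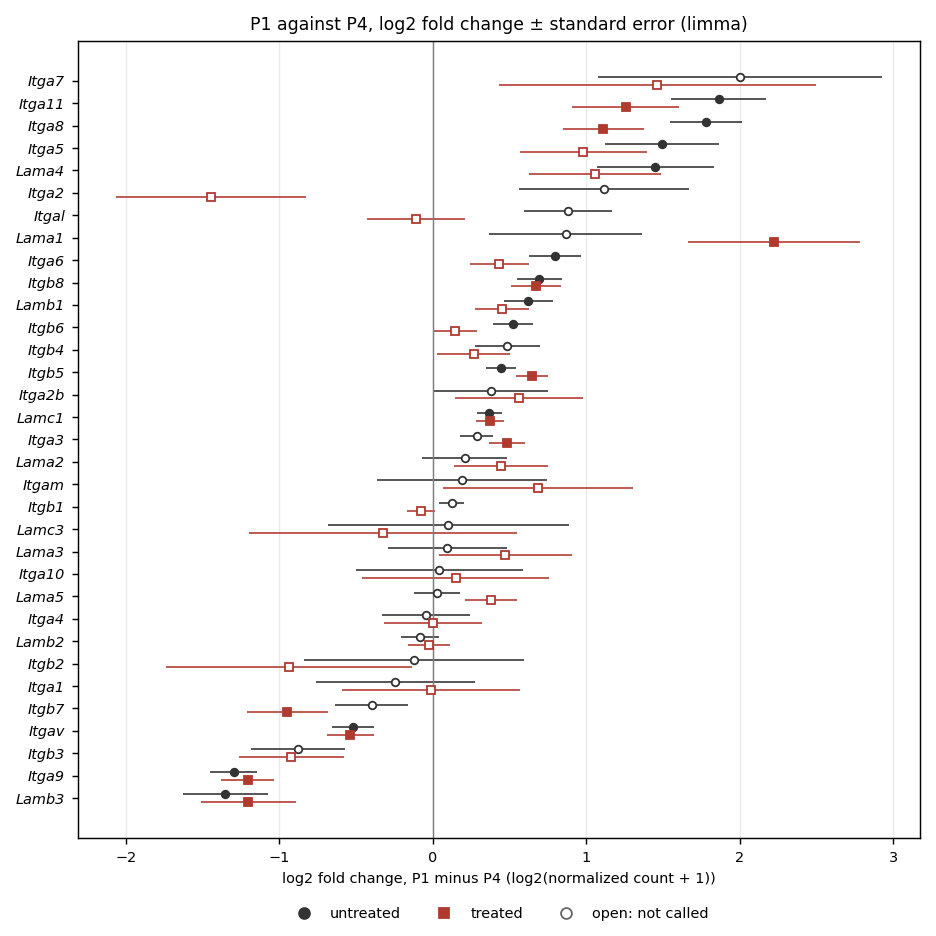
Log2 fold change between P1 and P4 on the scale of log2(normalized count + 1), for untreated (circles) and treated (squares) libraries, with bars of 1 standard error; values above 0 are higher at P1 and filled symbols were called. Of the genes called in both comparisons, Itga11 and Itga8 lie furthest to the right and Itga9 and Lamb3 furthest to the left. Itga7, not called, lies further right than Itga11 and Itga8 in both (2.00 untreated and 1.46 treated).

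*Itga8* (chromosome 2, 12106632 to 12301922, minus strand in GRCm38) had the largest difference in counts. It stood at 44000, 42836 and 32671 normalized counts in the P1 untreated and at 16180, 7540 and 12379 in the P4 untreated libraries. Every P1 library lay above every P4 library, with the lowest value in P4 untreated replicate 2 (log2 fold change 1.78, standard error 0.235, adjusted p = 8.37e-04). Its exons share 372 bp with the opposite-strand gene *E030013I19Rik*, and whether the counting used strand is not given in the sources. *Itga5*, the main fibronectin receptor subunit, stood at 1012, 636 and 799 at P1 and 315, 306 and 238 at P4, without overlap (log2 fold change 1.49, standard error 0.371, adjusted p = 0.0177). Its call was lost without P1 untreated replicate 1 or 3 or P4 untreated replicate 3, and over all alternatives the adjusted p ran from 0.00402 to 0.0645. *Itgav*, the alpha v subunit common to the alpha v integrins that bind RGD ligands, moved the other way, from 2527, 3075 and 2440 at P1 to 4181, 3279 and 4087 at P4 (log2 fold change -0.52, standard error 0.136, adjusted p = 0.0221). This small difference did not pass without P1 untreated replicate 1 or 3 or P4 untreated replicate 1 or 3, with an adjusted p of 0.0136 to 0.0821 over the alternatives. The exons of *Itgav* share 634 bp with the opposite-strand gene *Gm13684*.

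The window of 250 bases before the start of *Itga8* is shown because this gene leads the alpha subunits in level and in its difference in counts between the ages, and that of *Itgb5* because its values leaned down with treatment at both ages without passing the adjusted threshold, as given further on. Both are RefSeq promoters on GRCm38.p6, read 5′ to 3′ on the strand of the gene, at chr2:12301945-12302194 (minus strand) for *Itga8* and chr16:33829415-33829664 (plus strand) for *Itgb5*. Capitals mark AACAAT, a core sequence of SOX factors, in the first and the GC box GGGCGG or its reverse complement in the second.
Itga8: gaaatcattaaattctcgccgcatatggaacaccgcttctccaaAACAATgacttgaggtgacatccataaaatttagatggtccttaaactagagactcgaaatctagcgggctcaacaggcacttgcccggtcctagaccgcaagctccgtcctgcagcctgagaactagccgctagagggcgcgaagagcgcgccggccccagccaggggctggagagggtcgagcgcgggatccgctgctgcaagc
Itgb5: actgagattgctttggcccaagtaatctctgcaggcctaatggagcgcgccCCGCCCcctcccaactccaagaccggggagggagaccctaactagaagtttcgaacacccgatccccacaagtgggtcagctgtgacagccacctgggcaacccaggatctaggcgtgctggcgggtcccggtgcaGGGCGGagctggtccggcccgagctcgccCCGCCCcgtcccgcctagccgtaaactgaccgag

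Windows were matched for 22 of the 34 genes, 25 windows in all. The 3 motifs searched, on both strands, were chosen after the values were seen. AACAAT was found in 2 of the 25 windows (*Itga8*, at position -206 from the start, and *Itgb6*, in a window far from the annotated start of the gene) and in 9.42% of all 32851 windows of this length. GGGCGG was found in 9 of the 25, among them that of *Itgb5* with 3 matches, and in 32.7% of all windows. CTTTGAT, a core sequence of TCF/LEF factors, which bind β-catenin, was found in 0 of the 25 and in 3.21% of all. These are matches of letters within a short window and say nothing about binding.

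*Itga9* (chromosome 9, 118606690 to 118901003, plus strand) was the clearest gene with the opposite direction. The P1 untreated libraries held 1858, 2244 and 1633 normalized counts and the P4 untreated libraries 4630, 4046 and 5387. All 3 libraries at P4 were above all 3 at P1 (log2 fold change -1.30, standard error 0.154, adjusted p = 4.96e-04). Its closest relative *Itga4*, a subunit of leukocytes and neural crest cells, was not called, at 174, 103 and 178 against 161, 144 and 151 (95% interval of the log2 fold change -0.68 to 0.59).

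Of the laminin receptor subunits, *Itga6*, which pairs with integrin beta 1 or beta 4, was higher at P1, with 8940, 8625 and 7691 against 6123, 4179 and 4395 normalized counts and no overlap (log2 fold change 0.80, standard error 0.170, adjusted p = 0.00867). *Itga3* was called only between treated libraries and is given there. *Itga7*, best known from muscle, varied from 32 to 355 within the P1 untreated group and was not called. The highest value of *Itga7*, in P1 untreated replicate 3, went with 1481 summed normalized counts of the muscle markers, against 1449 and 1303 in the other P1 untreated libraries. In P1 treated replicates 1, 2 and 3, *Itga7* stood at 258, 74 and 81 and the muscle markers summed to 911, 279 and 194. The part of muscle in the values of *Itga7* was not tested.

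Among the collagen receptor subunits, *Itga11*, known from fibroblasts, stood at 563, 869 and 781 at P1 and at 161, 297 and 164 at P4. The groups did not overlap (log2 fold change 1.86, standard error 0.311, adjusted p = 0.00261). *Itga1*, *Itga2* and *Itga10* were not called, and the log2 fold changes of these 3 ran from -0.24 to 1.12. Of the 15 mesenchyme markers, 3 were higher at P1, 1 was lower and 11 were not called, with summed counts of 148216 to 170392 at P1 and 189003 to 207384 at P4, and a median log2 fold change of 0.97. The part of mesenchyme in the values of *Itga11* was not tested.

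Each of the 3 beta subunits that were called was higher at P1, and all of them can pair with alpha v. *Itgb5* (chromosome 16, 33829665 to 33949338, plus strand) had 11963, 12826 and 10079 normalized counts at P1 and 8059, 8811 and 8620 at P4, with no overlap (log2 fold change 0.45, standard error 0.0954, adjusted p = 0.00904). *Itgb8*, whose product presents latent TGF-beta for activation, stood at 965, 1157 and 1054 against 577, 597 and 805 (log2 fold change 0.69, standard error 0.148, adjusted p = 0.00884). *Itgb6*, an epithelial subunit with the same role, stood at 5892, 6675 and 5284 against 4683, 3653 and 4083 (log2 fold change 0.52, standard error 0.129, adjusted p = 0.0170). The 3 pairs of groups were all separate. The call of *Itgb6* was lost without P1 untreated replicate 2 or P4 untreated replicate 2 or 3, with an adjusted p of 0.0112 to 0.0878 over the alternatives. *Itgb3*, another partner of alpha v, was not called, at 176, 356 and 327 against 435, 504 and 584 (log2 fold change -0.88, standard error 0.306, adjusted p = 0.0655). *Itgb1* was not called either, with a 95% interval of -0.05 to 0.30 on the log2 scale.

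The laminin chains did not move as a block. *Lamb3* encodes the beta chain of laminin-332, the laminin of epithelial anchoring sites. *Lamb3* (chromosome 1, 193207699 to 193343878, plus strand) rose with age, from 1255, 1790 and 1330 normalized counts at P1 to 4549, 2825 and 3878 at P4 (log2 fold change -1.35, standard error 0.278, adjusted p = 0.00744). The groups did not overlap, and the lowest P4 value was in P4 untreated replicate 2. *Lama3*, which encodes the alpha chain of the same trimer, was low at both ages, between 34 and 83 normalized counts in the untreated libraries, or 0.00426 to 0.0243 of *Lamb3* per kb.

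Among the laminin chains higher at P1 were *Lamb1*, *Lamc1* and *Lama4*. *Lamb1*, in the embryonic trimers, stood at 13122, 10962 and 14630 against 9770, 6255 and 9417 (log2 fold change 0.62, standard error 0.158, adjusted p = 0.0190). *Lamc1* (chromosome 1, 153218922 to 153332786, minus strand), the gamma chain of most laminins, stood at 9153, 9261 and 9464 against 6991, 8038 and 6634 (log2 fold change 0.37, standard error 0.0820, adjusted p = 0.0106). *Lama4*, a chain of blood vessels and mesenchyme, stood at 897, 1235 and 1404 against 283, 512 and 522 (log2 fold change 1.45, standard error 0.383, adjusted p = 0.0231). The ages did not overlap for any of these 3. The call of *Lamb1* was lost without P1 untreated replicate 1 or 3, that of *Lamc1* without P4 untreated replicate 3, and that of *Lama4* without P1 untreated replicate 2 or 3 or P4 untreated replicate 1. Over the alternatives, adjusted p ran from 0.0116 to 0.0860 for *Lamb1*, 0.00457 to 0.0731 for *Lamc1* and 0.0126 to 0.185 for *Lama4*. Endothelial markers summed to between 7658 and 10625 at P1 and to between 3762 and 7215 at P4, with 0 of 12 called and a median log2 fold change of 0.13, and their part in *Lama4* was not tested. *Lama5* and *Lamb2* were not called, with 95% intervals of -0.30 to 0.36 and -0.36 to 0.19.

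Between treated cochleae of the 2 ages, 11 of the 34 genes were called, of which 7 had the higher level at P1 and 4 at P4. Of all genes 11.1% were called, 5.63% and 5.42% in these directions. *Xist* was low in all P1 treated and high in both P4 treated libraries, so a fit with log2 *Xist* separates age from sex poorly here. Neither a kept direction nor a lost call in that fit can tell the 2 apart. The count rests on few libraries. It was 5 without P1 treated replicate 1, 5 without P1 treated replicate 2, 8 without P1 treated replicate 3, and 2 without either of the P4 treated libraries. *Itga9* alone was called under each of these omissions, and the direction of all 11 was kept with log2 *Xist* as a covariate, under which 0 were called.

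In 8 genes the call was the same as in the untreated libraries, with which this comparison shares none. These were *Itga8*, *Itga11*, *Itgb5*, *Itgb8* and *Lamc1*, higher at P1, and *Itga9*, *Itgav* and *Lamb3*, higher at P4. Of all genes, 8.2% were called in the same direction in both comparisons. The spread in both was estimated from all 11 libraries, so the 2 comparisons are not fully independent. With only the groups compared in the fit, *Itga8*, *Itga9* and *Itgb5* were the ones of these 8 still called between treated ages. *Itga8* stood at 43251, 53192 and 43549 normalized counts in P1 treated and 23111 and 19963 in P4 treated libraries (log2 fold change 1.11, standard error 0.263, adjusted p = 0.0245). *Itga9* stood at 2928, 2931 and 3417 and 8277 and 6114 (log2 fold change -1.21, standard error 0.172, adjusted p = 0.00341). The groups were separate for both, with *Itga8* higher and *Itga9* lower in each P1 library. *Itgb5* had 9130, 10582 and 9375 against 6335 and 6025 (log2 fold change 0.65, standard error 0.107, adjusted p = 0.00605). *Lamb3* had 2018, 1008 and 2050 against 3280 and 4187 (log2 fold change -1.20, standard error 0.310, adjusted p = 0.0337). The lowest *Lamb3* value of all 11 libraries was in P1 treated replicate 2, and none of the P1 values reached those at P4.

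The other 4 of these 8 genes were also separate between the ages. *Itgb8* stood at 785, 756 and 673 against 424 and 502 (log2 fold change 0.67, standard error 0.165, adjusted p = 0.0282), and *Lamc1* at 9546, 9703 and 8532 against 7023 and 7276 (log2 fold change 0.37, standard error 0.0916, adjusted p = 0.0288). *Itga11* stood at 431, 287 and 230 against 154 and 105 (log2 fold change 1.26, standard error 0.347, adjusted p = 0.0431), with the highest of these in P1 treated replicate 1. *Itgav* stood at 2753, 3285 and 2443 against 3909 and 4237 (log2 fold change -0.54, standard error 0.152, adjusted p = 0.0474). Each P4 value of *Itgav* was the higher one, as in the untreated libraries.

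In 3 genes the call was made between treated libraries and not between untreated ones, and whether the age difference itself changed with treatment is the interaction given further on. *Lama1*, the laminin alpha chain of the early embryo, stood at 115, 286 and 257 normalized counts in P1 treated and 34 and 54 in P4 treated libraries (log2 fold change 2.22, standard error 0.559, adjusted p = 0.0308). All 3 P1 treated libraries were above all others for this gene, the next highest being P1 untreated replicate 1 at 101. *Itga3*, an epithelial laminin receptor subunit, stood at 3179, 3122 and 3211 against 1939 and 2645 (log2 fold change 0.49, standard error 0.118, adjusted p = 0.0270). *Itgb7*, a leukocyte subunit, stood at 59, 76 and 72 against 111 and 160 (log2 fold change -0.95, standard error 0.263, adjusted p = 0.0441). The leukocyte markers summed to 2660 to 4761 at P1 and 3865 and 6446 at P4, with 0 of 15 called, and their part in *Itgb7* was not tested. Among genes that were called between untreated ages and not here, the log2 fold changes between treated ages were 0.43 (*Itga6*), 0.15 (*Itgb6*), 0.98 (*Itga5*), 0.45 (*Lamb1*) and 1.06 (*Lama4*), all in the same direction.

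The other 17 members were called in no comparison. The largest of them were *Itgb1* (14499 to 19821 normalized counts over the 11 libraries), *Lamb2* (9840 to 13571), a beta chain of synaptic and vascular basement membranes, and *Lama5* (4951 to 7918). *Itgb4*, the partner of *Itga6* in hemidesmosomes, ranged from 1305 to 3051, and *Lama2*, the alpha chain of muscle and nerve, from 811 to 2121. These 5 genes varied less than 3-fold between their lowest and highest library. *Itgb3* (176 to 593) and *Itga2b* (90 to 298), which together form the fibrinogen receptor of platelets, were lower. The platelet markers summed to 125 to 550, with 3 of the 8 in the table past the minimum. *Lamc3* ranged from 105 to 1764. The leukocyte subunits *Itgal* (35 to 106), *Itgam* (23 to 174) and *Itgb2* (12 to 126) were low in all groups, and *Itgam* shares 3450 exonic bp with the same-strand gene *Gm49368*, so its counts are uncertain. *Itga4* (97 to 180), *Itga10* (114 to 869), *Itga7* (8 to 355), *Lama3* (34 to 108), *Itga1* (26 to 104) and *Itga2* (15 to 104) complete the list.

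None of the 34 genes was called between treated and untreated libraries at either age. At P1, 0 of 34 were called in limma, where 0.353% of all genes were (65 of 18400). An unadjusted p under 0.05 was reached by 8, with 2 higher and 6 lower in treated libraries, and 12.2% of all genes passed that mark. At P4, 0 were called against 0.0543% of all genes (10 of 18400), and 10 had an unadjusted p under 0.05, 8 higher and 2 lower, against 11.6% of all genes. Without P1 treated replicate 1 the count at P1 was 3, with *Itga11* (-1.49, adjusted p = 0.0480) and *Lama4* (-1.41, adjusted p = 0.0499) among them, and 371 of all genes were then called. Over the alternatives the adjusted p ran from 0.0480 to 0.903 for *Itga11* and 0.0499 to 1.00 for *Lama4*.

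**Figure D4:**
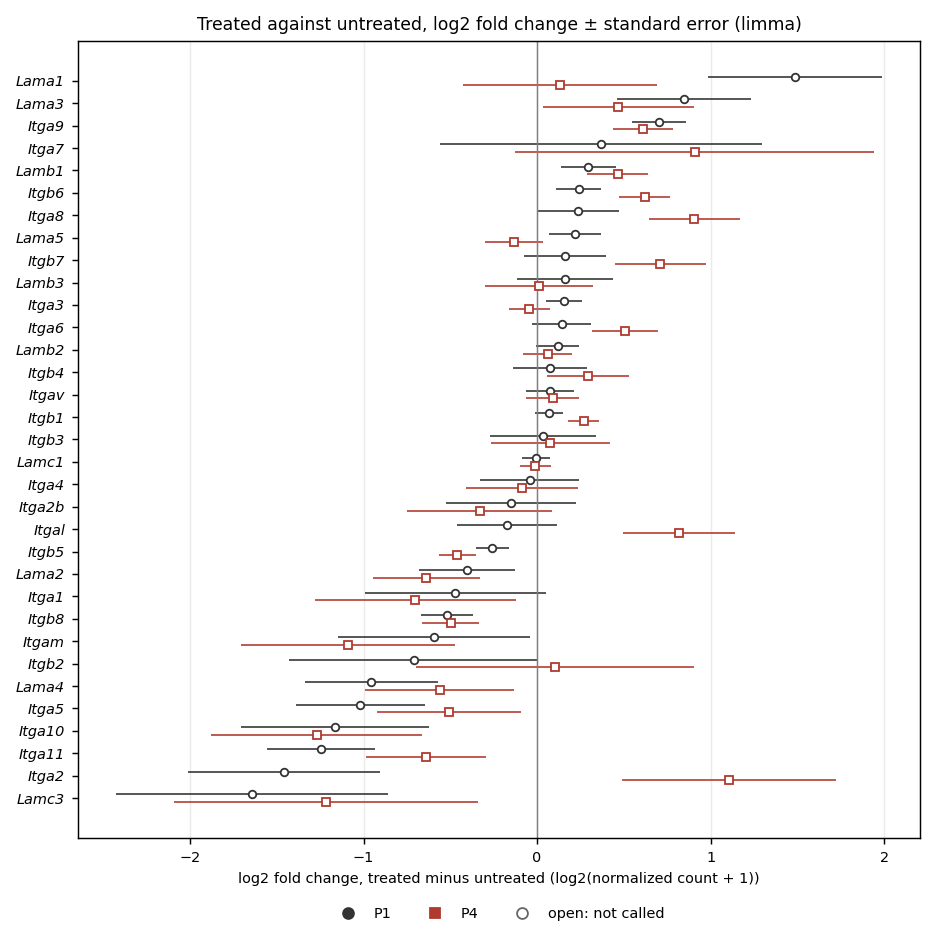
Log2 fold change between treated and untreated libraries on the scale of log2(normalized count + 1), at P1 (circles) and P4 (squares), with bars of 1 standard error; values above 0 are higher in treated libraries and all symbols are open because none was called. Itga9 lies right of 0 and Itgb5 and Itgb8 left of 0 at both ages by more than 1 standard error. Several other genes also do so in 1 direction, such as Itgb6 and Lamb1 to the right and Itga11, Itga10 and Lama4 to the left.

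The 3 genes with the smallest unadjusted p at P1 were *Itga9*, *Itga11* and *Itgb8*. *Itga9* had 2928, 2931 and 3417 normalized counts in treated and 1858, 2244 and 1633 in untreated libraries (log2 fold change 0.70, standard error 0.154, adjusted p = 0.108). *Itga11* had 431, 287 and 230 against 563, 869 and 781 (log2 fold change -1.25, standard error 0.311, adjusted p = 0.143). *Itgb8* had 785, 756 and 673 against 965, 1157 and 1054 (log2 fold change -0.52, standard error 0.148, adjusted p = 0.192). The groups did not overlap for any of the 3, with the treated libraries higher for *Itga9* and lower for the others. Genes picked by a small p tend to be separate, and the share of all genes that were separate is not given. *Itga3*, *Lama3* and *Lamb1*, with an unadjusted p above 0.05, were separate at P1 too. *Lama1* was also separate, with 115 or more in treated and 101 or less in untreated libraries (log2 fold change 1.49, adjusted p = 0.264). The remaining genes under an unadjusted p of 0.05 at P1 were *Itga2* (-1.46), *Itga5* (-1.02), *Lama4* (-0.96) and *Itgb5* (-0.26), with adjusted p between 0.303 and 0.351. *Xist* was low in all P1 treated libraries and high in P1 untreated replicates 2 and 3, so sex is partly mixed with treatment in these values.

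*Itga11*, *Itga5* and *Lama4*, known from mesenchyme and vessels, were not called at P1, and markers of other cells stood as follows. The summed endothelial markers were 3200 to 5029 in P1 treated and 7658 to 10625 in P1 untreated libraries, with 0 of 12 called and none of the list at 0 throughout. The leukocyte markers summed to 2660 to 4761 and 5552 to 7067, with 0 of 15 called. The 15 mesenchyme markers had a median log2 fold change of -1.08, with 1 called higher and 14 not called, while their sums overlapped (136604 to 212725 against 148216 to 170392). *Lama4* and *Itga11* were highest, among the treated libraries, in P1 treated replicate 1, which also had the highest endothelial and mesenchyme sums of its group, while *Itga5* was highest in P1 treated replicate 2, which had the lowest of both sums. The part of these cells in the values of *Itga11*, *Itga5* and *Lama4* was not tested. The leukocyte integrin genes *Itgal*, *Itgam* and *Itgb2* had adjusted p of 0.887, 0.757 and 0.779.

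At P4 the smallest unadjusted p were those of *Itgb5*, *Itgb6* and *Itga9*. *Itgb5* had 6335 and 6025 normalized counts in treated and 8059, 8811 and 8620 in untreated libraries (log2 fold change -0.46, standard error 0.107, adjusted p = 0.246). *Itgb6* had 6849 and 5838 against 4683, 3653 and 4083 (log2 fold change 0.62, standard error 0.144, adjusted p = 0.246). *Itga9* had 8277 and 6114 against 4630, 4046 and 5387 (log2 fold change 0.61, standard error 0.172, adjusted p = 0.283). Both treated libraries lay outside the untreated range for each of the 3, below it for *Itgb5* and above it for the others. With so few libraries this was frequent, and its share over all genes is not given. *Itga5*, *Itga10*, *Itga11*, *Itgb4* and *Lama2*, with an unadjusted p above 0.05, lay outside the untreated range too. *Itga8* was above the untreated range as well, at 23111 and 19963 against 16180, 7540 and 12379 (log2 fold change 0.90, adjusted p = 0.285). The others under an unadjusted p of 0.05 were *Itgb8* (-0.50), *Itgb1* (0.27), *Itgb7* (0.71), *Itga6* (0.51), *Lamb1* (0.46) and *Itgal* (0.82). As both treated pups were high and all 3 untreated pups low in *Xist*, treatment and sex cannot be told apart in these values.

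*Itga9*, higher in treated libraries, and *Itgb5* and *Itgb8*, lower, had an unadjusted p under 0.05 in the same direction at both ages, in comparisons that share no libraries. Of all genes 2.65% did so, and 3 of 34 is 8.82%. The log2 fold changes at P1 and P4 were 0.70 and 0.61 for *Itga9*, -0.26 and -0.46 for *Itgb5*, and -0.52 and -0.50 for *Itgb8*. None of these passed the adjusted threshold. The treatment and age comparisons share groups, so the direction of these genes with age is not independent of these values. *Lamc1* was among the genes with the narrowest interval, -0.19 to 0.17 at P1 and -0.21 to 0.19 at P4 on the log2 scale.

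**Figure D5:**
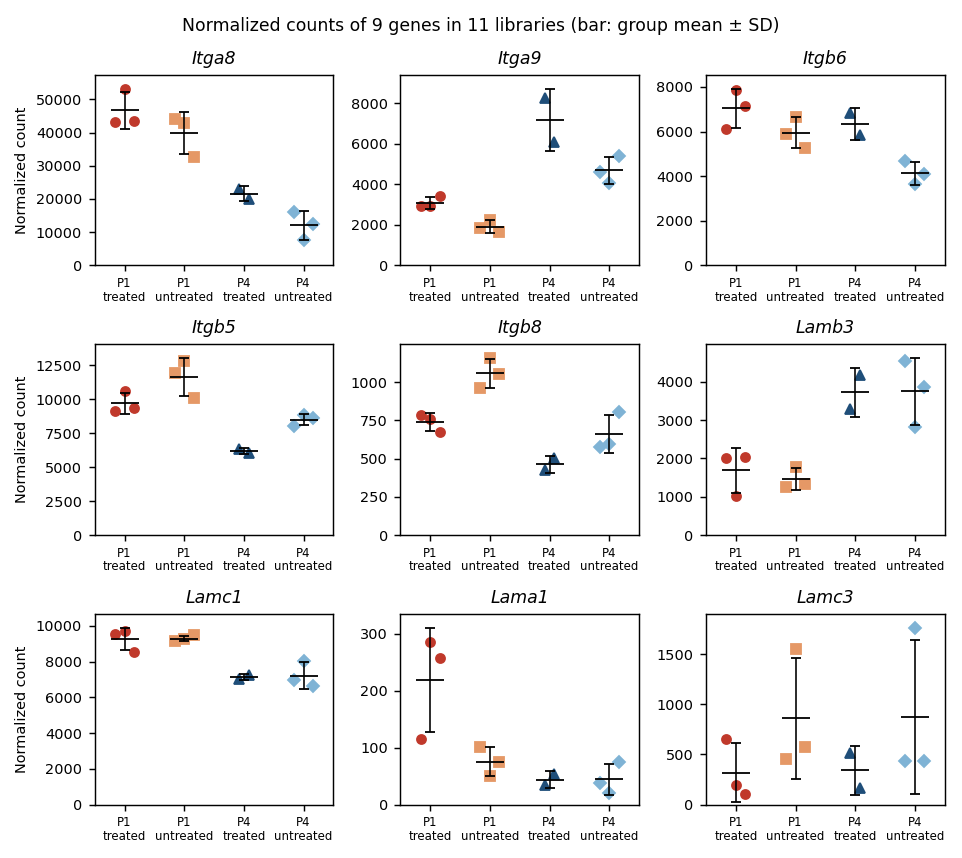
Normalized counts of 9 genes in each of the 11 libraries (linear axes from 0), with a horizontal bar for the group mean and whiskers of 1 SD (n = 3, and n = 2 for P4 treated). Itga8 and Itgb5 are higher at P1, Itga9 and Lamb3 at P4, Lama1 is highest in the P1 treated libraries, and Lamc3 has 1 high library in each untreated group.

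The interaction of treatment and age, the treated minus untreated difference at P1 less that at P4, called 0 of 34 genes in limma, as it did for all genes (0.0%). Those with an unadjusted p under 0.05 were 2, *Itga2* (-2.56, adjusted p = 0.820) and *Itgal* (-0.99, adjusted p = 0.844), both low genes, against 5.8% of all genes. *Itga2*, a collagen receptor subunit, stood at 15, 55 and 20 in P1 treated, 84, 71 and 63 in P1 untreated, 104 and 49 in P4 treated and 35, 17 and 58 in P4 untreated libraries. It was lower in treated libraries at P1 without overlap, and the groups overlapped at P4. For *Lama1* the interaction was 1.36 (95% interval -0.31 to 3.02), so that a difference of response between the ages was not shown.

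The genes that work with integrins and laminins were counted from 3 lists. Of 37 tested genes of the adhesion machinery inside the cell, 2 were higher at P1 and 8 higher at P4 between untreated ages, and 27 were not called. Among those higher at P4 were the actin linker *Vcl* (log2 fold change -0.72), the scaffold *Nedd9* (-1.14) and *Dst*, which ties integrin sites to intermediate filaments (-0.65). The median of the list was -0.11. Of 27 partners in the basement membrane, 8 were higher at P1, 4 higher at P4 and 15 not called. *Ntn4*, a laminin-related netrin (-1.92), and the laminin receptor *Bcam* (-1.50) were higher at P4, and the heparan sulfate proteoglycan *Agrn* (0.56) at P1, with a list median of 0.56. Of 34 matrix ligands of integrins, 14 were higher at P1, 2 higher at P4 and 18 not called. The thrombospondins *Thbs3* (1.56) and *Thbs2* (1.57) and the matricellular *Cyr61* (2.66) led them, with a list median of 0.73. The background of 19.9% of all genes called holds for these counts too.

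Between treated ages the same lists had 0 higher at P1 and 4 higher at P4 (adhesion machinery), 4 and 4 (basement membrane partners) and 8 and 2 (matrix ligands), beside 5.63% and 5.42% of all genes in these directions. *Vcl* (-0.91), *Dst* (-0.59), *Ntn4* (-1.89), *Agrn* (0.51), *Thbs3* (1.11), *Thbs2* (1.29) and *Cyr61* (2.43) were called there as well. Also called between treated ages, and higher at P4, were *Npnt* (-0.94) of the basement membrane partners and *Actn4* (-0.42) of the adhesion machinery. *Npnt* is also on the list of matrix ligands and enters the counts of both lists. In the treatment comparisons and the interaction, none of the genes on the 3 lists was called, and the list medians of the treatment comparisons lay between -0.17 and 0.22.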

How the data were processed

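RNA of mouse cochleae was analysed in 11 libraries of 4 groups, with 2 comparisons of treatment (1 per age), 2 of age (untreated and treated libraries apart) and the interaction of both. For these libraries the authors mapped the reads on mm10 using STAR 2.5.2b, ran featureCounts as a quality check, estimated transcripts in Sailfish, brought these to genes in tximport and tested them in DESeq2. The values they deposited are treated here as a score per gene, namely normalized counts rounded to whole numbers; which of the counts they come from is not given in the sources. Depth before normalization was not used, and each library's normalized counts summed to between 41.2 and 44.2 M.

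Since the values are not raw counts, log2(normalized count + 1) was fitted with limma 3.58.1 in R 4.3.3 (4 group means, shared spread, eBayes with trend) for all 18400 genes with a mean of at least 10, and p-values were adjusted over them by the method of Benjamini and Hochberg. Calls needed a fold change above 1.25 in either direction beside an adjusted p below 0.05. Intervals are at 95% from the same fit. The table had 27755 entries, of which 626 lacked a symbol and 1, a repeat of another ID, was dropped. The genes, lists, tests and alternatives were chosen with earlier results of these data known. Of the 34 genes, 1 enters the counts and is not reported here by name or value. Values by library were given for genes called in at least 1 comparison and for the 3 with the smallest p in each treatment comparison. Those of *Itga4*, *Itgb3*, *Itga2*, *Itga10* and *Lamc3* were given outside this rule. From the lists, up to 3 called genes with the smallest adjusted p were named. Positions are from GENCODE vM21 (GRCm38), with which 11 of the 34 genes share exonic bases with another gene.

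Residuals of same-numbered libraries correlated at r = 0.115 to 0.136 across genes in all 3 pairs of P1 and P4 untreated libraries. For same-numbered libraries the correlation was at most 0.026 in the other comparisons. A pair with different numbers, P1 treated replicate 2 and P1 untreated replicate 1, reached 0.156. The labels do not say that the numbers pair libraries, so the block on the number is given only as an alternative fit. The settings varied were the pseudocount (8 in place of 1), the filter (none, or a mean of 50), the scaling (2 others), the trend in eBayes, the groups in the fit, the block, log2 Xist as a covariate, the thresholds (adjusted p of 0.1, or no minimum fold) and the libraries, each left out in turn.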

Additional observations from a re-analysis of the deposited data

How the results depend on the processing

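Of 662 values of single genes under the alternatives, for 45 pairs of gene and comparison of which 25 were called, 566 kept their direction and their side of the threshold, 94 kept the direction and fell short of the threshold, 2 passed it newly and 0 turned. Between P1 and P4 treated libraries the count of 11 called genes was 5 with eBayes without trend, 4 with only the groups compared and 0 with log2 Xist as a covariate, and it ran from 2 to 8 when each library was left out. With the replicate block it was 4, and the labels do not say that the numbers pair libraries. With a P4 treated library left out, the lone library was assumed to vary like the other groups. Between untreated ages the count of 14 was 9 with log2 Xist as a covariate and 10 to 13 with each library left out. The fit with the replicate block called the same 14 genes. For treatment at P1 the count of 0 ran from 0 to 3 with each library left out. The count stayed at 0 for treatment at P4 and for the interaction under all alternatives. The reasons for these shifts were not tested. Over all genes, the count ran from 28 (with log2 Xist) to 3050 (adjusted p under 0.1) between treated ages, against 2034, and from 1807 to 4757 between untreated ages, against 3659. It ran from 7 to 371 for treatment at P1, against 65, from 2 to 22 for treatment at P4, against 10, and from 0 to 14 for the interaction. The whole-table depth before normalization was not used, so no limit of detection is given for single genes.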

Other observations

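The laminin gamma chain gene *Lamc3* and the collagen receptor subunit gene *Itga10* were each highest, within the untreated groups, in replicate 2 of both ages. *Lamc3* stood at 453, 1554 and 578 normalized counts in P1 untreated and at 432, 1764 and 432 in P4 untreated libraries. *Itga10* stood at 261, 659 and 352 and at 193, 869 and 329. Neither gene was called in any comparison. *Itga10* shares 1739 exonic bp with the same-strand gene *Gm42957*, so its counts are uncertain. *Emilin2*, which encodes a matrix glycoprotein and was looked up after its values were seen, stood at 4591, 10767 and 5998 in P1 untreated and at 7314, 56115 and 12479 in P4 untreated libraries, again highest in both replicates numbered 2. *Oc90*, which encodes the otoconial protein otoconin-90 and was also looked up after its values were seen, ranged from 302 to 187387 over the P1 untreated libraries. It ranged from 659 to 129706 over the P1 treated libraries. At P4 it stood at 433 and 899 in treated and at 383 to 9220 in untreated libraries.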
